A study of Mus musculus with 12 samples.

Results

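The nuclear-encoded subunits of the mitochondrial respiratory chain and ATP synthase were examined in CD11c-enriched cells of tumour-draining lymph nodes. Members were chosen by symbol, which does not show that each product is a structural subunit. The symbols were those of complex I (Ndufa, Ndufb, Ndufc, Ndufs, Ndufv and Ndufab1), complex II (Sdha to Sdhd), complex III (Uqcr), complex IV (Cox4 to Cox8) and complex V (Atp5). Each member had at least 60 reads summed over the 12 libraries. Of 85 symbols with such names, 6 had fewer reads and Cox6a2 was left out by name, which gave 78 members among 24499 symbols. These were 36 genes of complex I, 4 of complex II, 8 of complex III, 13 of complex IV and 17 of complex V. The members nearest the read minimum were Cox7a1 with 70 reads and Atp5g2 with 145, and the nearest symbols under it were Cox8b with 17 and Cox4i2 with 11.

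The 2 groups were C57BL6 mice, labelled wildtype, and mice labelled APOE-KO, with 6 libraries each. All mice of both groups carried E0771-cOC tumours, derived from the mouse mammary carcinoma line E0771, and nodes were removed 9 days after injection. Nodes were minced, digested with collagenase and DNase and enriched on beads against CD11c, an integrin of dendritic cells and some macrophages, and RNA was sequenced near its 3' ends. The labels give neither age nor sex, nor the background strain of the knockout, and do not say whether each library is a separate animal, so the p-values describe the spread between these libraries, which may be technical. The files are bulk sums over all cells on the beads, so fewer cells of a type and less RNA per cell cannot be told apart.

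The respiratory chain sits in the inner mitochondrial membrane. Complex I takes electrons from NADH and complex II from succinate, both hand them to ubiquinone, complex III passes them to cytochrome c, and complex IV passes them to oxygen. Complexes I, III and IV pump protons, and complex V, the ATP synthase, lets protons flow back to make ATP. Nuclear genes encode most subunits and mitochondrial DNA the rest. In dendritic cells, activation is known to shift the balance between this pathway and glycolysis. None of the 13 mitochondrially encoded subunits was found under its symbol in the table, and they were not analysed here.

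Totals ran from 2381477 to 4898360 counts per library, and the members held between 0.930% and 1.65% of them. The ribosomal RNA gene Rn45s took 2.71% to 32.2% of the counts, highest in wildtype library 1, which was also the shallowest. Apoe, the gene targeted in the knockout, held 838 to 2919 reads in wildtype libraries and 13 to 30 in APOE-KO libraries. Across the listed cell type markers, 7 of 13 tested genes of mature migratory dendritic cells were higher in APOE-KO (summed level 4214 to 6431 CPM, counts scaled to the TMM-adjusted library total, in wildtype and 5970 to 9253 in APOE-KO), and of 13 tested plasmacytoid dendritic cell genes 5 were lower and 1 higher (1641 to 3303 and 1284 to 1698 CPM). Of the epithelial markers 6 of 15 were tested and 1 was lower (85.8 to 149.8 and 8.86 to 95.8 CPM). The other lists were 14 conventional dendritic cell genes (1 higher, 1 lower), 12 macrophage genes (2 higher, 4 lower), 9 B cell genes (1 lower), and 9 genes of monocytes and neutrophils, 7 of plasma cells, 11 of T cells, 7 of NK cells, 7 of endothelium and stroma and 15 of proliferation, with none past the threshold. All 14 conventional dendritic cell markers passed the filter on low counts, and 9 of the 15 epithelial markers did not.

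No respiratory chain subunit passed the test between APOE-KO and wildtype. Of 77 tested members, 0 were higher and 0 were lower at an adjusted p of 0.05 (edgeR's quasi-likelihood test with Benjamini-Hochberg adjustment over 10714 genes), where 1.49% of all tested genes passed, 1.08% as higher and 0.411% as lower. At an unadjusted p under 0.05 there were 6 members, all with a higher fitted level in APOE-KO, against 12.1% of all tested genes, of which 6.27% were higher and 5.81% lower. In 0 members did the 6 APOE-KO libraries lie wholly above or below the 6 wildtype libraries, and over all tested genes 1.77% did so, 1.23% above and 0.541% below. DESeq2 called 1 of 77 members, Ndufa3, where it called 2.77% of all tested genes, and limma-voom called 0, where it called 1.56%. Each of these tools put 6 members and 13.1% of all tested genes at an unadjusted p under 0.05.

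The fitted differences were small and mostly positive. The median log2 fold change (APOE-KO over wildtype) of the 77 members was 0.10, a ratio near 1, and the median of all tested genes was -0.02. A positive value was found in 60 members and a negative one in 17, or 77.9% positive, beside 47.3% of all tested genes. The count of positive members moved with the libraries and covariates used: it was 49 of 77 without wildtype library 1, 37 with the mean of the plasmacytoid dendritic cell markers as a covariate, and 64 with that of the mature dendritic cell markers, an alternative added after seeing the data. Scaling by library totals alone lowered all genes, to a median of -0.07, and left 47 members positive. The gap between the medians of members and all genes was then 0.11 in place of 0.12. That gap was not stable under the marker covariates. It was -0.0112 with the plasmacytoid mean, 0.0192 with the B and T cell means, 0.0436 with the epithelial mean and 0.236 with the mature dendritic cell mean. In the cumulative plot of fitted differences the curve of the members rises more steeply than that of all genes. Of the 77 members, 75 lay within 0.5 of 0 on the log2 scale, the exceptions being Sdhd and Atp5s.

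**Figure D1:**
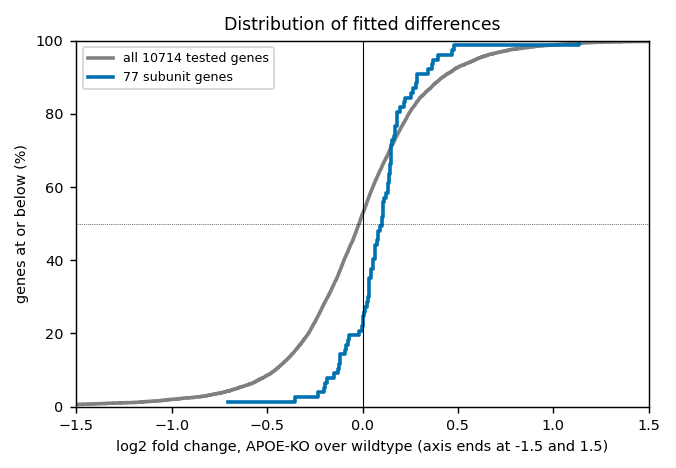
Cumulative share of genes (vertical axis, percent) at or below each fitted log2 fold change of APOE-KO over wildtype (horizontal axis). The grey line holds all 10714 tested genes (median -0.02) and the blue line the 77 subunit genes (median 0.10).

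The libraries were precise enough to bound most members closely. The 95% interval of the log2 fold change lay wholly between a 1.5-fold decrease and a 1.5-fold increase for 63 of 77 members, or 81.8%. Among the 5162 other tested genes with a mean between 25.6 and 371 CPM, which spans the middle of the members' levels, the share was 58.6%. By complex these were 30 of 36 genes of complex I, 3 of 4 of complex II, 8 of 8 of complex III, 10 of 12 of complex IV and 12 of 17 of complex V. Ndufab1, Ndufb4, Sdhd, Cox6b2, Atp5g2 and Atp5s were the 6 tested members whose interval reached beyond a 2-fold change. Each of these 6 had at most 752 reads over the 12 libraries. The median biological coefficient of variation between libraries of a group was 18.1% over the members. It was 21.5% over those other genes and 27.4% over all tested genes. Those other genes were not matched in level: their median mean level was 59.7 CPM, and that of the tested members 127 CPM. The contrasts of 81.8% with 58.6% and of 18.1% with 21.5% therefore do not separate the members from their higher counts.

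**Figure D2:**
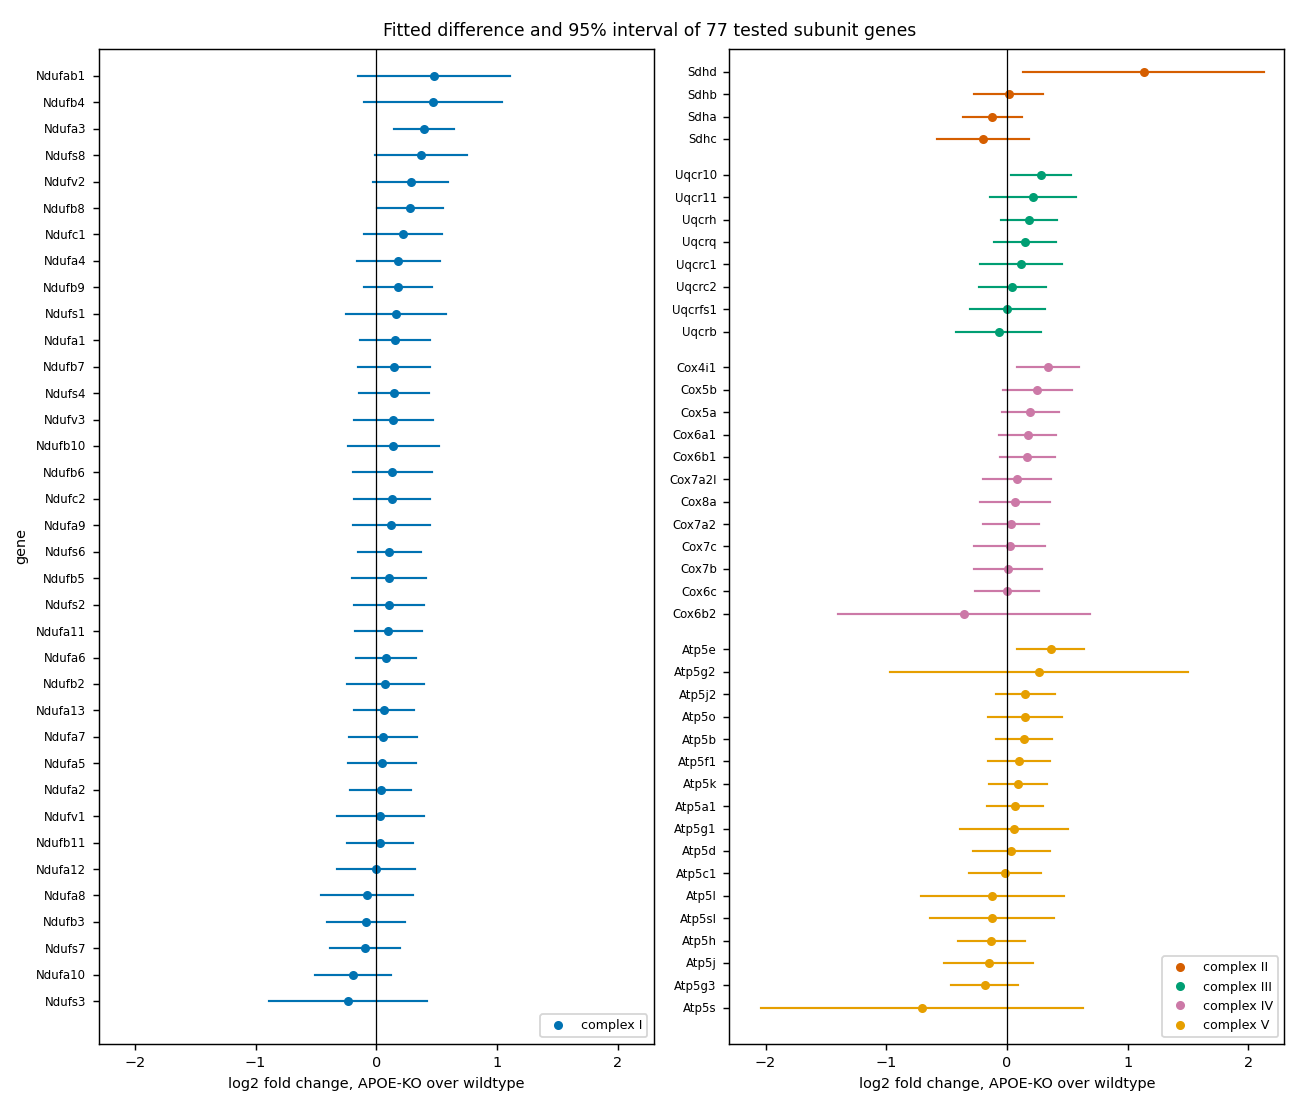
Log2 fold change of APOE-KO over wildtype (points) with its 95% interval (lines) for each tested subunit gene, coloured by complex. Intervals cross 0 for 71 of the 77 genes and lie above 0 for the other 6, none of which passed after adjustment.

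Complex I, the NADH dehydrogenase, had a median log2 fold change of 0.12 over 36 tested genes, 30 of them positive. Summed over its genes, wildtype libraries held 4200 ± 374 CPM and APOE-KO libraries 4560 ± 284 CPM (mean ± SD of 6), with ranges of 3740 to 4622 and 4195 to 4892 CPM. Those ranges overlap. Ndufv1, which carries the NADH-binding site, stood at 41.1 ± 4.36 and 42.2 ± 8.56 CPM, wildtype first as in all pairs of levels that follow (log2 fold change 0.03, 95% interval -0.33 to 0.39, adjusted p = 0.976). Ndufs1, an iron-sulphur subunit of the same arm, stood at 34.2 ± 3.61 and 38.4 ± 12.6 CPM (log2 fold change 0.17, interval -0.25 to 0.58, adjusted p = 0.821). Neither core subunit differed beyond the spread between libraries.

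Ndufa3, a small accessory subunit of the membrane arm, had the smallest p of all members. It ran from 196 CPM through a median of 211 to 266 CPM in wildtype and from 256 through 298 to 322 CPM in APOE-KO. The groups overlapped by the lowest APOE-KO library and the highest wildtype library. Its log2 fold change was 0.39 ± 0.12 (SE), or 1.31-fold, with an adjusted p of 0.118, and DESeq2 gave an adjusted p of 0.0311. At its transcript end Ndufa3 overlaps Tfpt, a gene on the other strand. The strand setting of the counts is not known, so reads of Tfpt may be among those of Ndufa3. Ndufa3 and Ndufb8 were singled out after their values were seen. Ndufb8, another accessory subunit, had 223 ± 34.1 and 271 ± 39.7 CPM, with a log2 difference of 0.28 (interval 0.01 to 0.56) at an adjusted p of 0.401, and it overlaps a gene on the same strand, Gm20538, whose reads cannot be told apart without knowing the counting rules.

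The highest fitted values of complex I belonged to low genes. Ndufab1, the mitochondrial acyl carrier protein, had 313 reads over wildtype and 439 over APOE-KO (log2 fold change 0.48, interval -0.15 to 1.11, adjusted p = 0.57). Ndufb4 had 252 and 363 reads (log2 fold change 0.47, interval -0.11 to 1.04, adjusted p = 0.529). At the other end were Ndufs3, a core subunit, with 21.6 ± 6.24 and 18.4 ± 12.9 CPM (log2 fold change -0.23, adjusted p = 0.842), and Ndufa10 with 93.4 ± 12.4 and 81.7 ± 15.7 CPM (log2 fold change -0.20, adjusted p = 0.67). Ndufs3 turned on 1 library: APOE-KO library 5 held 44.1 CPM and the other APOE-KO libraries 11.0 to 19.3, and without it the log2 fold change was -0.71 (adjusted p = 0.272). Ndufa2 had the highest level of the complex, with 335 ± 41.9 and 343 ± 39.6 CPM (log2 fold change 0.04, adjusted p = 0.953). Ndufa4, first described in complex I and later assigned to complex IV, was at 46.9 ± 8.21 and 53.4 ± 8.56 CPM (adjusted p = 0.741), while its relative Ndufa4l2 held 1 read in all.

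Complex II, succinate dehydrogenase, links the chain to the tricarboxylic acid cycle and is encoded by nuclear genes alone. Its 4 genes had a median log2 fold change of -0.05. That median was 0.06 without wildtype library 3, and 0.10, 0.13 and 0.0193 with the epithelial mean, the mature dendritic cell mean and the Rn45s share as covariates. The flavoprotein Sdha ran from 172 through 190 to 215 CPM in wildtype and from 161 through 172 to 198 CPM in APOE-KO (log2 fold change -0.12, interval -0.36 to 0.12, adjusted p = 0.766). The iron-sulphur subunit Sdhb was at 112 ± 17.9 and 113 ± 14.6 CPM (log2 fold change 0.01, interval -0.28 to 0.30, adjusted p = 0.988). Both catalytic subunits lay in overlapping ranges.

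The membrane anchors of complex II were less even. Sdhc was at 89.4 ± 33.4 and 78.1 ± 8.23 CPM (log2 fold change -0.20, adjusted p = 0.745), and 1 library, wildtype 3, held its highest level of 152 CPM. Without wildtype library 3 its log2 fold change was 0.03. Sdhd had 1, 10, 36, 9, 24 and 14 reads in wildtype libraries 1 to 6 and 44, 10, 18, 52, 34 and 45 in the APOE-KO libraries. These are 3.80 ± 2.38 and 8.59 ± 3.59 CPM, and the log2 fold change, 1.13 ± 0.48 (SE), was the largest of all members at an adjusted p of 0.335. The interval ran from 0.13 to 2.13, and 2 APOE-KO libraries lay within the wildtype range. The log2 fold change of Sdhd was 0.20 with the mean of the plasmacytoid markers as a covariate and 2.07 with that of the epithelial markers.

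Complex III, the cytochrome bc1 complex, had positive values for 7 of 8 genes and a median of 0.13. The sum over its genes was 1455 ± 69.4 CPM and in APOE-KO 1605 ± 103 CPM, with overlapping ranges of 1379 to 1569 and 1423 to 1732 CPM. Uqcrh, the hinge subunit that contacts cytochrome c1, was its highest gene with 573 ± 43.1 and 651 ± 81.7 CPM (log2 fold change 0.18, adjusted p = 0.551). Uqcrfs1, the Rieske iron-sulphur protein, was at 224 ± 55.4 and 225 ± 21.2 CPM (log2 fold change 0.00, interval -0.31 to 0.31, adjusted p = 0.995). The core protein Uqcrc1 was at 54.7 ± 3.92 and 59.2 ± 14.5 CPM (adjusted p = 0.857).

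Uqcr10, a small subunit of complex III, ran from 125 through 141 to 167 CPM in wildtype and from 165 through 175 to 192 CPM in APOE-KO. The lowest APOE-KO library lay below the highest wildtype libraries. Its log2 fold change was 0.28 ± 0.12 (SE, adjusted p = 0.33). Uqcr11 was at 87.9 ± 24.5 and 102 ± 13.3 CPM (adjusted p = 0.682), and Uqcrb, which had the lowest log2 fold change of the complex, at 58.8 ± 12.5 and 56.2 ± 10.9 CPM (log2 fold change -0.07, adjusted p = 0.927).

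Complex IV, cytochrome c oxidase, had 12 tested genes with a median of 0.07, 11 of them positive, and a median of -0.11 with the plasmacytoid marker mean as a covariate. Its summed level was 3175 ± 291 and 3449 ± 175 CPM, with ranges of 2754 to 3553 and 3250 to 3702 CPM. Cox4i1, the largest nuclear-encoded subunit of the oxidase, ran from 218 through 301 to 321 CPM in wildtype and from 316 through 361 to 387 CPM in APOE-KO. The lowest APOE-KO library lay within the upper part of the wildtype range. The log2 fold change was 0.34 ± 0.12 (SE), or 1.27-fold, with an adjusted p of 0.218, and Cox4i1 overlaps the gene Gm20388 on its own strand. Cox5a, its highest gene, was at 428 ± 51.2 and 490 ± 40.4 CPM (log2 fold change 0.19, interval -0.04 to 0.43, adjusted p = 0.519) and Cox5b at 107 ± 16.4 and 127 ± 16.4 CPM (adjusted p = 0.48). Cox6c, at 400 ± 71.3 and 401 ± 38.8 CPM, had a log2 fold change of 0.00 (interval -0.26 to 0.27, adjusted p = 0.997).

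Several complex IV subunits exist as a common isoform and one of muscle, lung or testis. For Cox4i, Cox8 and Cox6b the common isoform carried nearly all reads in both groups. The muscle isoform Cox7a1 was likewise rare, and the Cox7a reads were split between Cox7a2 and its relative Cox7a2l. Cox4i1 held 6135 and 8139 reads over the 6 wildtype and the 6 APOE-KO libraries, and the lung isoform Cox4i2 11 and 0. Cox8a held 8563 and 8838 reads and the muscle isoform Cox8b 9 and 8. Of Cox6b reads, the testis isoform Cox6b2 made up 1.83% ± 0.793 and 1.31% ± 0.772 (SD), and Cox6b1 itself was at 300 ± 26.3 and 337 ± 23.1 CPM (adjusted p = 0.595). Of the reads of Cox7a1, Cox7a2 and Cox7a2l, the muscle isoform Cox7a1, too low to be tested, made up 18 reads in wildtype and 52 in APOE-KO, while Cox7a2 took 60.8% ± 4.45 and 60.1% ± 6.22 and Cox7a2l nearly all of the rest. Cox7a2 was at 360 ± 34.6 and 369 ± 26.8 CPM (adjusted p = 0.95) and Cox7a2l at 231 ± 28.0 and 245 ± 48.8 CPM (adjusted p = 0.875).

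In the Cox6a pair the minor isoform held a larger share in wildtype than Cox4i2, Cox8b or Cox6b2 in their pairs. Cox6a2, the muscle isoform, is also a gene of plasmacytoid dendritic cells and was left out of the members. It is among the 14 listed plasmacytoid markers, is counted in the 5 lower ones and enters their mean used as a covariate, so these results are not separate. It made up 15.6% ± 7.55 of Cox6a reads in wildtype (7.50% to 27.7%) and 6.48% ± 2.00 in APOE-KO (3.91% to 8.90%), with ranges that overlap. Cox6a2 itself fell by 1.30 on the log2 scale (adjusted p = 0.0274), from 48.2 ± 30.1 to 19.5 ± 6.03 CPM. Cox6a1, the common isoform, was at 250 ± 22.6 and 281 ± 23.2 CPM (log2 fold change 0.17, interval -0.06 to 0.41, adjusted p = 0.6).

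Complex V, the ATP synthase, had 10 positive and 7 negative values among 17 tested genes and a median of 0.06. That median was -0.02 without wildtype library 2, -0.0369 with the plasmacytoid marker mean as a covariate and 0.00298 with the epithelial one. Its summed level was 4000 ± 427 and 4114 ± 182 CPM, with ranges of 3430 to 4445 and 3863 to 4426 CPM. The catalytic head is built from Atp5a1 and Atp5b. Atp5a1 was at 386 ± 46.5 and 404 ± 30.5 CPM (log2 fold change 0.07, interval -0.17 to 0.30, adjusted p = 0.886) and Atp5b at 377 ± 37.8 and 417 ± 35.9 CPM (log2 fold change 0.14, interval -0.09 to 0.38, adjusted p = 0.679). Atp5e, the small epsilon subunit of the central stalk, ran from 316 through 453 to 522 CPM in wildtype and from 498 through 547 to 666 CPM in APOE-KO. Its groups overlapped in the range from 498 to 522 CPM, the log2 fold change was 0.36 ± 0.13 (SE), or 1.28-fold, and the adjusted p was 0.231.

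The ring of c subunits is encoded by 3 genes, Atp5g1, Atp5g2 and Atp5g3, which differ in their import sequences. Atp5g3 was the highest of all members, with 1100 ± 275 and 968 ± 72.8 CPM (log2 fold change -0.19, interval -0.47 to 0.10, adjusted p = 0.643). The share of Atp5g3 was 96.7% ± 1.45 of the reads of the 3 genes in wildtype and 96.3% ± 0.434 in APOE-KO. Atp5g1 was at 32.7 ± 10.9 and 33.7 ± 5.80 CPM (adjusted p = 0.96), and Atp5g2 at 2.65 ± 2.16 and 3.32 ± 1.79 CPM (adjusted p = 0.918). The levels and shares of Atp5g1 and Atp5g2 are uncertain. The last 100 bases of an Atp5g1 transcript have matches of at least 95% identity in 4 other annotated genes, among them Dgka, Naa25 and Pde6g. These 3 genes hold 2809 reads in the table, and Atp5g1 itself 1444. The 2809 are totals over the whole genes, and how many fall in the matching stretch is not known. Those last bases of Atp5g2 have such matches in 2 genes. Atp5s, named after the synthase but not a subunit of its core, had the lowest log2 fold change of all tested members, with 4.79 ± 3.98 and 2.99 ± 1.55 CPM (-0.70, interval -2.03 to 0.63, adjusted p = 0.744). Its current name is Dmac2l. Atp5sl, now named Dmac2, was likewise placed in complex V by its older name alone, and its log2 fold change was also negative (-0.12).

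**Figure D3:**
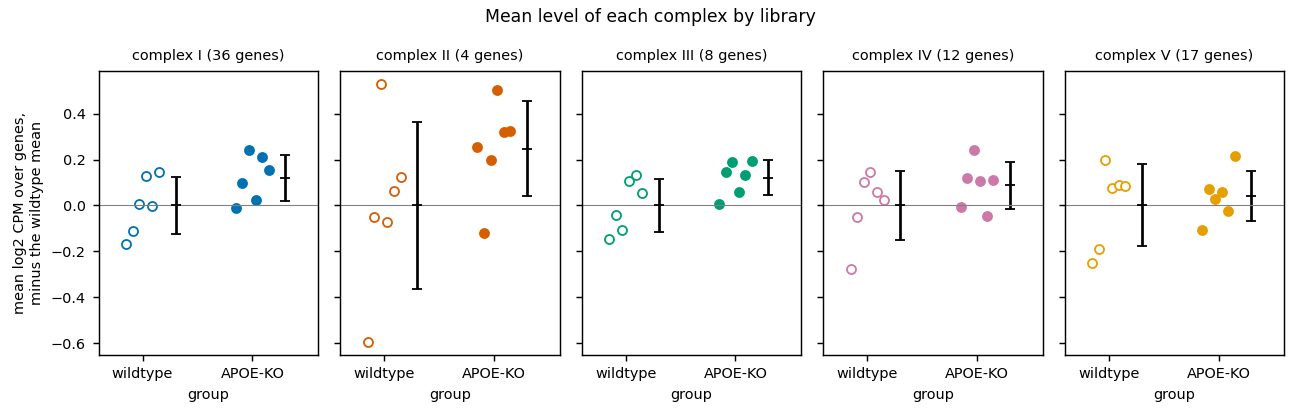
Mean log2 CPM over the tested genes of each complex, minus the mean of the wildtype libraries (vertical axis, log2), in each wildtype (open circles) and APOE-KO (filled circles) library, with the mean ± SD of 6 libraries beside them. The groups overlap in every complex, and the lowest value in each is wildtype library 1 (complex I -0.17, complex V -0.25).

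The lower end of the wildtype range was set by 1 library in most complexes. Of the 77 tested members, 33 had their lowest level of all 12 libraries in wildtype library 1. Among them were 14 of 36 genes of complex I, 5 of 8 of complex III and 8 of 12 of complex IV. This count was not made over all tested genes, so it is not shown to be particular to the members. Wildtype library 1 also had the highest Rn45s share, 32.2%, and the highest summed level of plasmacytoid markers, 3303 CPM. Its summed level of conventional dendritic cell markers, 5190 CPM, was the highest as well. Without it, the median log2 fold change of the members was 0.06 in place of 0.10. The highest levels were spread more widely: 15 members peaked in APOE-KO library 5, 13 in APOE-KO library 3, 9 in wildtype library 4 and 9 in APOE-KO library 6. As a description, the members' mean log2 level minus the wildtype mean ran from -0.22 to 0.11 in wildtype and from -0.02 to 0.19 in APOE-KO.

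**Figure D4:**
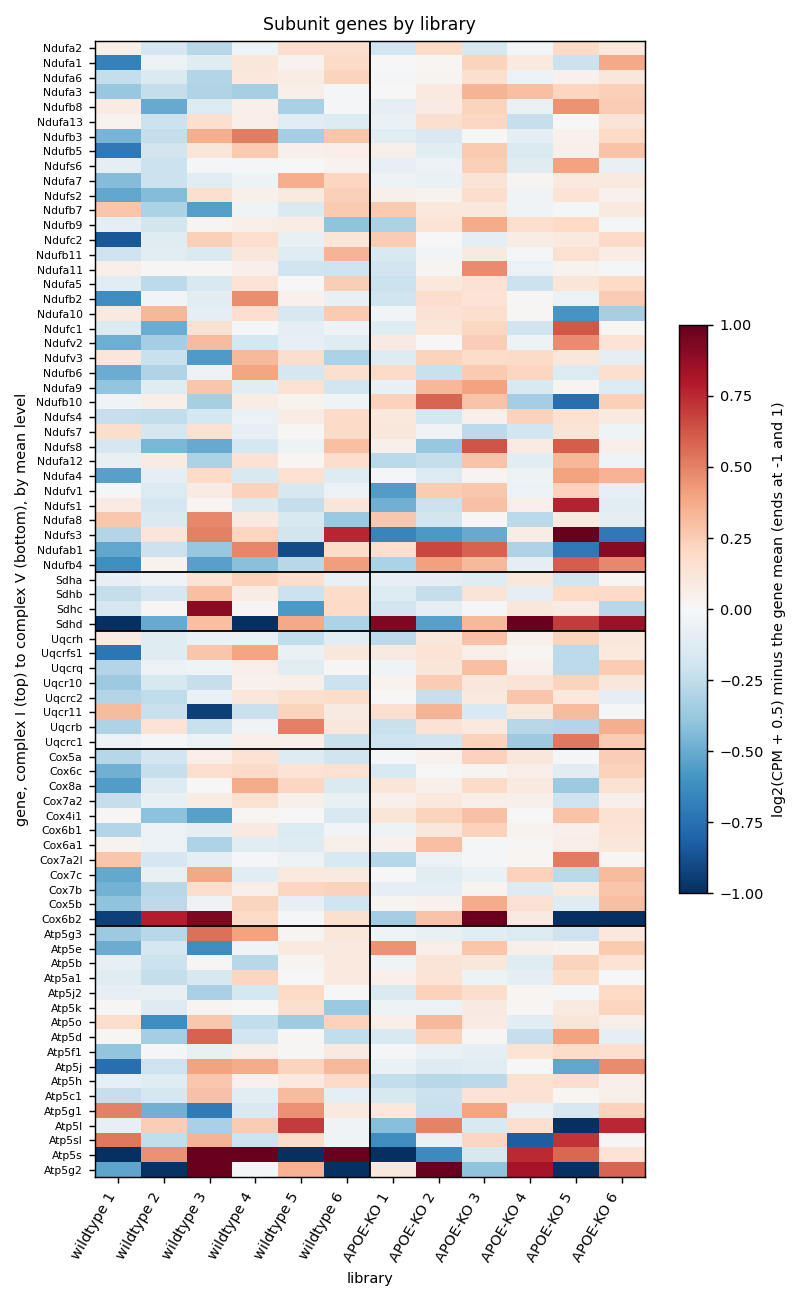
Level of each tested subunit gene (rows, complex I at the top to complex V at the bottom, ordered by mean level) in each library (columns), as log2(CPM + 0.5) minus the mean of the gene. Wildtype library 1 is blue in many rows, with the lowest level of 33 of the 77 genes, and the rows at the foot of each complex, which hold the lowest genes, vary most.

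The 6 members with an unadjusted p under 0.05 came from all 5 complexes: Ndufa3 and Ndufb8 from complex I, and Sdhd, Uqcr10, Cox4i1 and Atp5e from complexes II, III, IV and V. Their folds were 1.21 to 1.31, apart from Sdhd at 2.19. In the plot of these genes by library, the means are apart and the points overlap in each panel. Those adjusted p-values ran from 0.118 to 0.401 in edgeR's test.

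**Figure D5:**
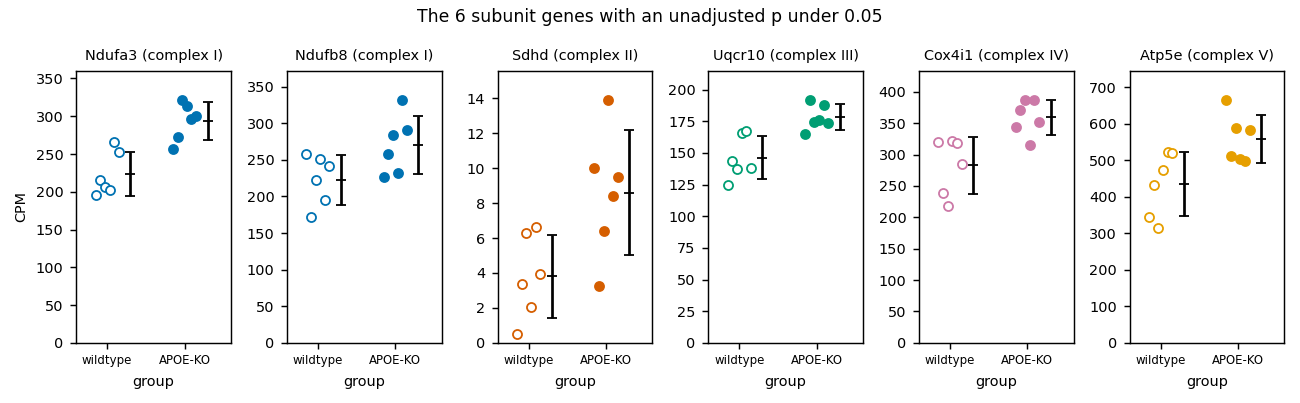
CPM (linear axis from 0) of the 6 subunit genes with an unadjusted p under 0.05 in each wildtype (open) and APOE-KO (filled) library, with mean ± SD of 6 libraries. Groups overlap in every gene, for Ndufa3 between 256 and 266 CPM.

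Members lie on 19 chromosomes (GENCODE vM21, GRCm38). Chromosome 7, which holds Apoe from 19696109 to 19699188, carries 8 of them. Ndufa3, the member with the smallest p, lies on chromosome 7 from 3617373 to 3620327 on the plus strand, 16.1 Mb from Apoe. Nearer to Apoe are Atp5sl, now named Dmac2, at 5.92 Mb, with 576 reads over wildtype and 544 over APOE-KO (log2 fold change -0.12, adjusted p = 0.906), Cox7a1 at 10.5 Mb, Cox6b1 at 10.9 Mb (log2 fold change 0.17) and Cox6b2 at 14.9 Mb (5.67 ± 2.54 and 4.57 ± 3.04 CPM, log2 fold change -0.35, adjusted p = 0.851). Those with a test did not pass. The sources used here do not say how far sequence of another strain extends around the knockout allele, and its part in these values was not tested.

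Promoters of respiratory chain genes are known to carry sites for the factors NRF1, GABP (an ETS factor) and YY1. RefSeq promoters (GRCm38.p6, 250 bases before to 50 after the start) were matched for 67 of the 78 members, 64 by symbol and 3 by synonym, and searched on both strands. The core of the NRF1 motif, GCATGCGC, stood in 10 members (14.9%, against 3.05% of 27025 genes). The ETS letters ACTTCCGG stood in 5 members (7.46% against 4.31%) and the YY1 letters AAGATGGCG in 8 (11.9% against 1.64%). The median log2 fold change was 0.10 for members with the NRF1 core and 0.10 for those without, 0.06 and 0.10 for the ETS letters, and 0.12 and 0.10 for the YY1 letters. A match is a string of letters, not a site shown to be bound.

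Shown here are the 100 bases before the start of 5 members, 5' to 3' along the gene, as examples of the 3 motifs, with the match in capitals. They come from complexes I, III and V, and none of these genes passed the test. Atp5k (chr5:108434400-108434499, minus strand) and Ndufa11 (chr17:56717662-56717761, plus strand) hold the NRF1 core on both strands, overlapping, Uqcr11 (chr10:80406822-80406921, minus strand, motif on the opposite strand) and Uqcrh (chr4:116075071-116075170, minus strand) the ETS letters, and Atp5j (chr16:84834977-84835076, minus strand) the YY1 letters, all in GRCm38.p6.
Atp5k: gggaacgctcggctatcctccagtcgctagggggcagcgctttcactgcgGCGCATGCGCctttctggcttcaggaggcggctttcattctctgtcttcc
Ndufa11: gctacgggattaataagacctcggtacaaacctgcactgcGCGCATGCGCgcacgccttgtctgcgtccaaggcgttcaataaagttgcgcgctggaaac
Uqcr11: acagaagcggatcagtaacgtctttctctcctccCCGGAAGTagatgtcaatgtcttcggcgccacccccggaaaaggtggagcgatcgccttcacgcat
Uqcrh: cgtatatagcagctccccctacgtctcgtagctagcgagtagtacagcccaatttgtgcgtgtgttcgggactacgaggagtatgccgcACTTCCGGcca
Atp5j: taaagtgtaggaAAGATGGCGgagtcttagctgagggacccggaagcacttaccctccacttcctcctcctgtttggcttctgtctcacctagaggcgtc

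The NRF1 stretch, which reads alike on both strands, begins 50 bases before the start in Atp5k and 60 in Ndufa11. Atp5k, the e subunit of the synthase, was at 289 ± 34.8 and 308 ± 22.2 CPM, and Ndufa11, which helps hold the membrane arm of complex I together, at 106 ± 8.93 and 114 ± 19.6 CPM. Atp5j, coupling factor 6 of the synthase stalk, was at 172 ± 46.3 and 156 ± 36.0 CPM. Another RefSeq promoter of Atp5j (chr16:84835576-84835875), with a different start, does not hold the YY1 letters. The Uqcr11 promoter also holds the NRF1 core, which runs past the end of the stretch shown. These 5 genes stand outside the rule for named genes, apart from Uqcr11 and Uqcrh, and were chosen with their values known.

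Around the subunits, the genes that build, feed and regulate the chain showed no called change either. Of 15 tested assembly factors of complex I, 3 of complex II, 5 of complex III, 22 of complex IV and 3 assembly factors or inhibitors of complex V, 0 were higher and 0 were lower, with medians of -0.05, 0.45, 0.02, 0.18 and 0.17. The same held for 20 genes of pyruvate oxidation and the tricarboxylic acid cycle (median 0.06), 12 genes of ubiquinone synthesis (median 0.14) and 15 regulators of mitochondrial biogenesis (median -0.03), where 1.49% of all tested genes passed. Over these lists and the 2 cytochromes, 97 genes were tested and edgeR, DESeq2 and limma-voom each called 0. In these tools 5, 6 and 7 of the 97 had an unadjusted p under 0.05, all positive. Of all tested genes, 12.1%, 13.1% and 13.1% had such a p in either direction. Cytochrome c, encoded by Cycs, was at 24.0 ± 8.61 and 34.2 ± 13.6 CPM (log2 fold change 0.50, interval -0.06 to 1.07, adjusted p = 0.48) and cytochrome c1, encoded by Cyc1, at 45.9 ± 12.9 and 52.2 ± 13.7 CPM (adjusted p = 0.81). Named after their values were seen, the complex IV factor Cmc2 was at 31.7 ± 7.35 and 46.3 ± 5.96 CPM (log2 fold change 0.54, adjusted p = 0.176) and the complex III factor Uqcc2 at 37.5 ± 10.9 and 54.8 ± 9.46 CPM (log2 fold change 0.56, adjusted p = 0.231). The regulator gene Nrf1 was at 36.8 ± 7.51 and 31.9 ± 7.65 CPM (log2 fold change -0.22, adjusted p = 0.747).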

How the data were processed

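The authors deposited 1 table of raw counts, whole numbers by gene symbol, for 12 libraries. Per the submitters' processing notes, STAR 2.7.8a, featureCounts 1.5.1, R 4.1.0, DESeq2 1.4 and build mm10 were used by the authors. For annotation, strand setting and reads with several matches, the sources used here give nothing. Of the 78 members, 28 overlap an annotated gene of opposite strand and 12 a gene of equal strand (GENCODE vM21), and 8 have transcript ends (last 100 bases, at least 95% identity over 80%, BLAST 2.17.0) near-identical to another gene, so their counts are uncertain. Counts from 3' ends do not grow with gene length.

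All 24499 symbols were read in R 4.3.3 with edgeR 4.0.16 (filterByExpr, minimum count 10 and total 15, 10714 genes; TMM; glmQLFit and glmQLFTest on genotype; adjusted over 10714 genes; threshold 0.05). Cox7a1 alone of the members failed the filter. CPM use TMM-scaled totals, 3 counts standing for 0.522 to 1.59 CPM, and mean log2 levels a prior count of 2. Intervals are 95%, from the fitted SE. Alternatives used limma 3.58.1 and DESeq2 1.42.0. The fit was tested on simulated data. Replicates differed by more than sampling noise. Same-numbered libraries did not deviate together.

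The members and lists were chosen with earlier results of these data known. Genes were named by rule: members past the threshold, in each complex the 2 highest and 2 lowest log2 fold changes and the highest level, core subunits, and isoform groups.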

Additional observations from a re-analysis of the deposited data

Results flagged for a closer look

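Within each group of 6 libraries, the highest and the lowest value was compared with the rest, and 7 of 88 groups held a library far from the others. The values were the CPM of each named subunit and of Ndufa3 and Ndufb8, and the mean log2 levels of each complex and of all members. All 7 were CPM of single genes. Chance flags about 5% of groups. APOE-KO library 5 was the library set apart in 5 of the 7. It held 44.1 CPM of Ndufs3, a core subunit of complex I, where the other APOE-KO libraries held 11.0 to 19.3. It held 184 CPM of Uqcrfs1, the Rieske protein of complex III, against 224 to 242 in the others. Its Cox8a, a small subunit of complex IV, stood at 292 CPM against 389 to 427. In the same library Cox7a2 was low, at 316 CPM against 376 to 391, and its relative Cox7a2l high, at 338 CPM against 194 to 238, so that Cox7a2l held 51.4% of the reads of the Cox7a genes there and 39.5% ± 6.10 over the 6 APOE-KO libraries (SD). Cox7a2l was also high in wildtype library 1, with 286 CPM against 210 to 232 in the other wildtype libraries. Cox6a1, the common isoform of its pair, was high in APOE-KO library 2, with 326 CPM against 262 to 285.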

How the results depend on the processing

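Over 28 alternatives, 0 members passed the threshold except under DESeq2, which called 1 (Ndufa3), and the smallest adjusted p of any member ran from 0.0311 to 0.853. The count over all genes, 160 (116 higher, 44 lower), was 297 under DESeq2, 88 with library totals alone (53 higher, 35 lower), 100 with the replicate block (members: median 0.09, 60 positive), 334 with the Rn45s share as covariate (199 higher, 135 lower), 51 with B and T cell marker means, 13 with the epithelial mean, 8 with the plasmacytoid mean (3 higher, 5 lower) and 4 with the mature dendritic cell mean (1 higher, 3 lower), an alternative chosen after seeing the data. Leaving out 1 library gave 99 (without APOE-KO 3) to 230. The plasmacytoid mean moved the median log2 fold change of all members to -0.0369, of complex III to 0.0331 and of complex IV to -0.11, and the mature dendritic cell mean moved that of all members to 0.23 and of complex I to 0.30. The sign of the complex II median (-0.0533) changed with the epithelial mean (0.10), the mature dendritic cell mean (0.13) and the Rn45s share (0.0193), and that of complex V (0.0551) with the plasmacytoid mean (-0.0369). Leaving out 1 library gave medians of 0.0571 to 0.13 over all members, 0.0627 to 0.16 for complex I, -0.0883 to 0.0642 for II, 0.0922 to 0.17 for III, 0.0504 to 0.13 for IV and -0.0230 to 0.0853 for V. The cause was not tested. Of 978 recomputed values 88 changed sign, all of genes that did not pass. These log2 fold changes were, with RLE factors, Uqcrfs1 -0.00214 and Cox6c -0.00285, with totals alone, Ndufv1 -0.0332, Sdhb -0.0452, Uqcrfs1 -0.0782, Cox6c -0.0661, Cox7a2 -0.0268 and Cox8a -0.0109, with a mean of at least 5 CPM, Cox6c -0.00129, with DESeq2, Uqcrfs1 -0.00243 and Cox6c -0.00356, and with limma-voom, Ndufv1 -0.0225 and Cox6c -0.00260. With the epithelial mean they were Ndufa2 -0.20, Ndufb4 -0.16, Ndufs1 -0.0421, Ndufv1 -0.14, Sdha 0.0685, Sdhc 0.14, Uqcr11 -0.0427, Uqcrc1 -0.34, Cox6a1 -0.0138, Cox6b2 0.48, Cox7a2l -0.17, Atp5b -0.0837, Atp5g1 -0.15, Atp5g3 0.0217 and Atp5s 0.25. With the plasmacytoid mean they were Ndufab1 -0.0906, Sdhb -0.13, Uqcrfs1 -0.49, Cox5a -0.00381, Cox5b -0.0683, Cox6c -0.39, Cox7a2 -0.16, Cox8a -0.40, Atp5a1 -0.0369 and Atp5g2 -0.0901. With the B and T cell means they were Ndufa4 -0.0261, Ndufs1 -0.15, Ndufv1 -0.0852, Sdhb -0.20, Uqcrc1 -0.0910, Uqcrfs1 -0.0283, Cox6c -0.10 and Cox7a2l -0.0379, and with the Rn45s share Atp5g1 -0.0328. Without wildtype 1, wildtype 3 and APOE-KO 5 together they were Ndufa2 -0.0462, Uqcrc1 -0.00848, Uqcrfs1 -0.0152, Cox6c -0.0339 and Atp5a1 -0.0191. With the mature dendritic cell mean they were Ndufs3 0.63, Sdhc 0.0741, Atp5g1 -0.0542, Atp5g3 0.21 and Atp5s 0.0998. Leaving out 1 library changed a sign for Sdhb -0.0287 to 0.0937, Uqcrfs1 -0.11 to 0.10, Cox6c -0.0787 to 0.0506, Cox7a2 -0.00778 to 0.0794, Cox8a -0.0244 to 0.16, Atp5g1 -0.0499 to 0.17, Ndufa2 -0.00104 to 0.0762, Sdhc -0.31 to 0.0347, Uqcrb -0.16 to 0.0411, Ndufv1 -0.0166 to 0.13, Ndufs1 -0.0148 to 0.26 and Cox7a2l -0.0308 to 0.15. The replicate numbers did not pair the libraries: the deviations of same-numbered libraries correlated in 0 of 6 pairs at over 0.1. Depth limits Sdhd, Atp5s, Cox6b2 and Atp5g2, each under 300 reads in all, whose intervals reach beyond 2-fold.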

Other observations

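The assembly factors of complex IV, which insert copper and heme and guide its subunits together, had a summed level of 838 to 1055 CPM in wildtype and 1074 to 1165 CPM in APOE-KO, 2 ranges that do not overlap, although 0 of 22 tested factors passed and 15 had a positive log2 fold change. One of them, Cox14, was above every wildtype library in all APOE-KO libraries, at 81.9 ± 9.49 and 98.3 ± 6.38 CPM (log2 fold change 0.27, adjusted p = 0.422), where 1.23% of all tested genes lay wholly above. Both were singled out after their values were seen. That share is for single genes, and none was computed for sums over lists. Of all the lists summed here, the complex IV assembly factors were the only one whose ranges did not overlap. Sdhaf1, an assembly factor of complex II, had a log2 fold change of 0.45 (adjusted p = 0.283). Suclg1 and Sucla2, subunits of succinyl-CoA ligase, which makes the succinate that complex II oxidises, were at 58.2 ± 13.7 and 78.7 ± 12.6 CPM (adjusted p = 0.289) and at 59.3 ± 12.2 and 75.9 ± 6.57 CPM (adjusted p = 0.35). With Cmc2 and Uqcc2 these 3 genes were the 5 of 97 with an unadjusted p under 0.05 in edgeR's test, and none passed after adjustment. Of all tested genes, 12.1% had such an unadjusted p.

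Ndufs5, an accessory subunit of complex I, was listed at 0 reads in every library. The last 100 bases of its transcript are identical to those of the annotated gene BC002163, with 41 reads in the wildtype libraries together and 16 in the APOE-KO libraries. The sources used here do not say how reads that match both were counted.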
